A study of Mus musculus with 17 samples.

Results

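Retinoic acid is made inside the cell from vitamin A, and the genes described here are 9 that make it, bind it, answer it or clear it. They were chosen by name, with no measured value in the rule: Aldh1a1, Aldh1a2 and Aldh1a3 (retinaldehyde dehydrogenases), Dhrs3 (a retinal reductase), Crabp2 (a binding protein), Rara, Rarb and Rarg (the receptors) and Cyp26b1 (a clearing enzyme). All 9 were found among the 56748 genes of the count table. Of these, 8 were among the 15196 genes with enough reads to be tested, and Crabp2 was not.

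Cells take up retinol, oxidise it to retinal with dehydrogenases such as Rdh10, and oxidise retinal irreversibly to retinoic acid with the ALDH1A enzymes. Dhrs3 works against this flow by reducing retinal back to retinol, and the CYP26 enzymes end the signal by hydroxylating retinoic acid. Retinoic acid bound to its receptors, which pair with retinoid X receptors on DNA, switches on target genes that include Rarb, Dhrs3 and Cyp26a1, so several members are both parts and readouts of the pathway. In podocytes, the epithelial cells that wrap the glomerular capillaries with foot processes, retinoic acid is known for promoting differentiation.

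RNA came from E11 cells, an established mouse podocyte line, grown on silicone (polydimethylsiloxane, PDMS) and sequenced as 17 libraries. A smooth surface with no topography (NT) gave 5 libraries and served as the control without topography. A round topography (RT), which is textured without being fractal, gave 6 and served as the textured control. A high fractal topography (HF), drawn from tracings of healthy glomeruli in tissue sections, gave 6. All groups shared the cell line and the silicone, and the labels name no other treatment and no culture time. They do not say whether replicates were separate cultures, passages or substrates, so every p-value is set against a spread among libraries that could be technical. Libraries held 14.9 to 24.1 M counts. The mean ± SD was 16.7 ± 1.37 M for the 5 NT libraries, 19.2 ± 3.40 M for the 6 RT libraries and 17.1 ± 0.547 M for the 6 HF libraries. Of the podocyte markers, Synpo stood at 282 CPM (counts scaled to a common library total of 1 M), Podxl at 131 CPM and Wt1 at 115 CPM on NT, while Tcf21 had no count in any library. The label podocyte thus rests on some of the defining markers and not on Tcf21.

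The start regions of 4 members are shown first. Aldh1a2 and Dhrs3 were the members that differed between surfaces, Cyp26b1 had the highest mean level, and Rarb carries a known retinoic acid response element. The part of these sequences in the changes between surfaces was not tested. Each run is the 250 bases before the start site, 5′ to 3′ on the gene's strand, from RefSeq on GRCm38.p6: Rarb at chr14:16575477-16575726 (minus strand), Aldh1a2 at chr9:71215539-71215788 (plus), Dhrs3 at chr4:144892577-144892826 (plus, the first of 3 start regions) and Cyp26b1 at chr6:84593811-84594060 (minus). Capitals mark every receptor hexamer and DR5 element found.
Rarb: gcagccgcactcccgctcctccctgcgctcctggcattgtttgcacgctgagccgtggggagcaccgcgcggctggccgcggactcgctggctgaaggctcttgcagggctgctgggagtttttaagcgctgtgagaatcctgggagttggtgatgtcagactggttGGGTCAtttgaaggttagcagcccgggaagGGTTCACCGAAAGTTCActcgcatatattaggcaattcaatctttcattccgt
Aldh1a2: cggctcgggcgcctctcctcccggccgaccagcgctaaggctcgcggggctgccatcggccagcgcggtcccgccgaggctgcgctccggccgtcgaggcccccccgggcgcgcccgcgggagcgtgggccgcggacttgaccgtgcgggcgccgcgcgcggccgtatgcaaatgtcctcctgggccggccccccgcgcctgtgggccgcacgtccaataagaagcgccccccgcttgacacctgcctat
Dhrs3: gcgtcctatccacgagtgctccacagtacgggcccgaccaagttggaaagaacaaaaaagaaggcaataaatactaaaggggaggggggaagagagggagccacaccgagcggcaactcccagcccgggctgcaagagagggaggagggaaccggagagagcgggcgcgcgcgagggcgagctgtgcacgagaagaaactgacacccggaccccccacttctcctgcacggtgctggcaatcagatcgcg
Cyp26b1: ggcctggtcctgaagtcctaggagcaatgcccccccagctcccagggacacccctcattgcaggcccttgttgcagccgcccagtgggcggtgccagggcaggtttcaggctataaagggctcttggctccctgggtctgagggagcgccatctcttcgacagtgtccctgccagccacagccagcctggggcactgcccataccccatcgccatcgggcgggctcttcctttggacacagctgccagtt

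RefSeq start regions were found for 7 of the 9 members, 14 regions in all, with none for Aldh1a3 or Crabp2. They were searched on both strands for the receptor hexamer AGGTCA, for its related form AGTTCA, for the forms of both that begin with G, which are GGGTCA for the former and GGTTCA for the latter, and for direct repeats of these with 1, 2 or 5 bases between (DR1, DR2 and DR5). Repeats contain hexamers, so the counts overlap. Among the members, Rarb alone had a repeat: the DR5 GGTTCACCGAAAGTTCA, at -53 to -37 from the start site. A DR5 occurred in 29 of 32851 RefSeq start regions of this length (0.0883%), and at least 1 hexamer in 38.6% of them. The printed Aldh1a2 region held 77.6% G and C with 40 CpG pairs and no hexamer. The printed Dhrs3 region held 61.6% G and C with 19 CpG pairs, that of Cyp26b1 64.8% with 7, and neither held a hexamer. A match is a match of letters, not a measured site, and a region without one says only that the letters are not in this window.

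Per kilobase of exon, the members fell into a high and a near-silent group. Cyp26b1 stood highest at 55.5 ± 11.1 CPM per kilobase (SD, n = 17 libraries), followed by Aldh1a2 at 49.2 ± 3.87, Dhrs3 at 26.1 ± 2.36, Rara at 19.9 ± 0.977, Aldh1a1 at 19.7 ± 2.50 and Rarg at 15.7 ± 0.544. Rarb at 0.213 ± 0.0746, Crabp2 at 0.182 ± 0.155 and Aldh1a3 at 0.149 ± 0.0654 CPM per kilobase were far lower. The Rarb level is less certain, since 38.4% of its exon bases overlap those of Gm48162 or Top2b. Cyp26b1 and Aldh1a2 did not differ beyond their spread, nor did Rara and Aldh1a1, nor the 3 lowest genes among themselves. On NT alone Aldh1a2 (46.1 CPM per kilobase) was level with Cyp26b1 (45.2). The place of Aldh1a1 depends on the gene model: divided by its longest transcript (2358 bases) rather than all exons (4937 bases) its level was 41.3 CPM per kilobase, above Dhrs3 by the same measure (32.7). E11 cells on silicone thus held mRNA for 2 retinal oxidising enzymes, 1 retinal reductase, 2 receptors and 1 clearing enzyme at substantial levels.

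**Figure D1:**
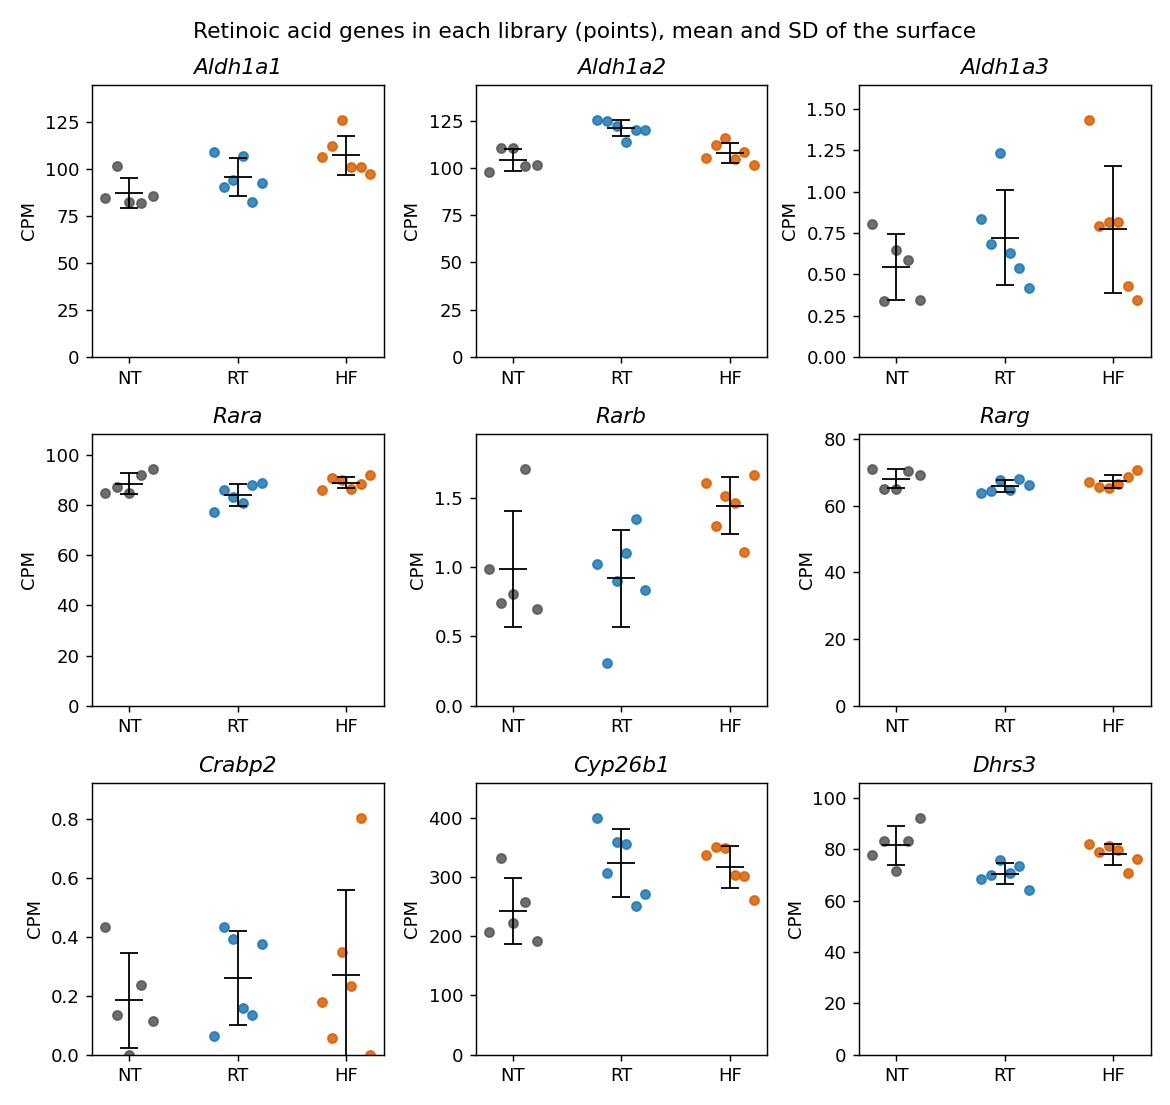
Level of each of the 9 genes in CPM (vertical axis, from 0, own scale per panel) on the flat (NT), round (RT) and fractal (HF) surface; points are libraries, the bar is the mean and the whisker the SD (not drawn below 0). Aldh1a2 on RT (113.5 to 125 CPM) lies above every NT library (98.0 to 111 CPM), and Crabp2, Rarb and Aldh1a3 stay near or below 1.7 CPM.

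Round topography against the flat surface asks what texture without a fractal pattern does. Here Aldh1a2 rose and Dhrs3 fell, by 15.8% and 13.6%, and the other 6 tested members did not pass the test. Across all genes 603 of 15196 passed (3.97%), 384 higher and 219 lower, and the groups did not overlap for 517 (3.4%); of the members 2 of 8 passed and 1, Aldh1a2, did not overlap. The median log2 fold change of the 8 was 0.04, against -0.0021 over all genes, and the median size without sign was 0.17 against 0.0748.

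Aldh1a2 encodes the main retinoic acid forming enzyme of the embryo. It measured 98.0, 110, 111, 101 and 102 CPM in the 5 flat libraries. On RT the lowest, median and highest library were 113.5, 121 and 125 CPM. Every RT library was above every NT library. The log2 fold change was 0.21 ± 0.04 (SE; 95% interval 0.13 to 0.29; 15.8% higher), with an adjusted p of 0.00100 by edgeR's quasi-likelihood test over all genes tested. No alternative setting and no left-out library ended this call.

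Dhrs3, which returns retinal to retinol and is itself induced by retinoic acid in many cells, measured 77.7, 83.2, 71.5, 83.0 and 92.1 CPM on NT. On RT it ran from 64.1 CPM through a median of 70.3 to 75.9 CPM. Flat library 3 fell inside the RT range and the other 4 lay above it. The log2 fold change was -0.21 ± 0.05 (SE; 95% interval -0.32 to -0.11; 13.6% lower), with an adjusted p of 0.0145 in edgeR. The oxidising enzyme thus rose and the opposing reductase fell on the same surface by changes of like size in mRNA. In RNA from whole cultures, fewer cells of a type and less RNA per cell cannot be told apart.

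Cyp26b1, which hydroxylates retinoic acid, had the highest level over all libraries. It measured 207, 331, 222, 258 and 191 CPM on NT. RT libraries ran from 250.1 CPM through a median of 331 to 399 CPM. Flat library 2 was as high as the RT median, and library 4 also reached the RT range. The difference of 0.42 ± 0.15 on the log2 scale (95% interval 0.09 to 0.74) had an adjusted p of 0.160 in edgeR and did not pass. Without flat library 2 it was 0.55 with an adjusted p of 0.0393, and limma voom gave 0.43 with 0.0320.

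Aldh1a1, a retinal oxidising enzyme that also acts on other aldehydes, differed by 0.14 ± 0.08 (log2; adjusted p 0.449, edgeR), with 87.3 ± 8.08 CPM on NT (SD, n = 5) and 95.9 ± 10.1 CPM on RT (SD, n = 6). Among the receptors, Rara (RAR alpha) stood at 88.5 ± 4.28 CPM on NT and 83.9 ± 4.52 CPM on RT, a difference of -0.07 ± 0.04 (log2; adjusted p 0.348, edgeR). Rarg (RAR gamma) stood at 68.1 ± 2.96 and 65.7 ± 1.78 CPM, with an interval of the difference of -0.13 to 0.03 on the log2 scale. Neither receptor passed, and the groups overlapped for both. Rarb (RAR beta, whose start region carries the DR5) had 5 to 30 counts per library, and its difference of -0.09 ± 0.29 (log2) leaves an interval of -0.69 to 0.51. Aldh1a3, the third retinaldehyde dehydrogenase, had 5 to 24 counts per library and an interval of -0.38 to 1.11. At so few counts these intervals are wide, and any difference inside them remains compatible with the data.

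Markers of other cell types moved in the same comparison. Acta2, a smooth muscle actin, was the only 1 of 4 tested genes of the mesangial, pericyte and smooth muscle list to pass, at 261 CPM on NT and 363 CPM on RT. That list of 8 summed to 678 to 772 CPM on NT, 775 to 855 CPM on RT and 807 to 881 CPM on HF, none of its genes was at 0 in every library of a group, and 6 averaged under 1 CPM on NT and RT. Of the immune list of 6 genes, Csf1r passed (39.4 against 50.8 CPM) as 1 of 2 tested, the sum was 38.2 to 43.1 CPM on NT, 47.0 to 59.4 CPM on RT and 41.1 to 55.5 CPM on HF, and Adgre1 and Cd3e were at 0 throughout. Of the tubule list of 10, Havcr1 passed (3.72 against 16.1 CPM) as 1 of 6 tested, with sums of 1428 to 1787 CPM on NT and 1547 to 1733 CPM on RT, and Slc34a1 and Aqp2 at 0. Of 13 tested podocyte markers 2 fell, Wt1 by 0.24 and Efnb2 by 0.14 on the log2 scale, and of 5 tested parietal markers Cldn1 fell by 0.21. The stellate list, the cells that store retinoids in the liver, summed to 1.29 to 2.61 CPM on NT and 1.36 to 2.54 CPM on RT, with Lrat at 0 in every library. The part of these markers in the changes of Aldh1a2 and Dhrs3 was not tested.

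**Figure D2:**
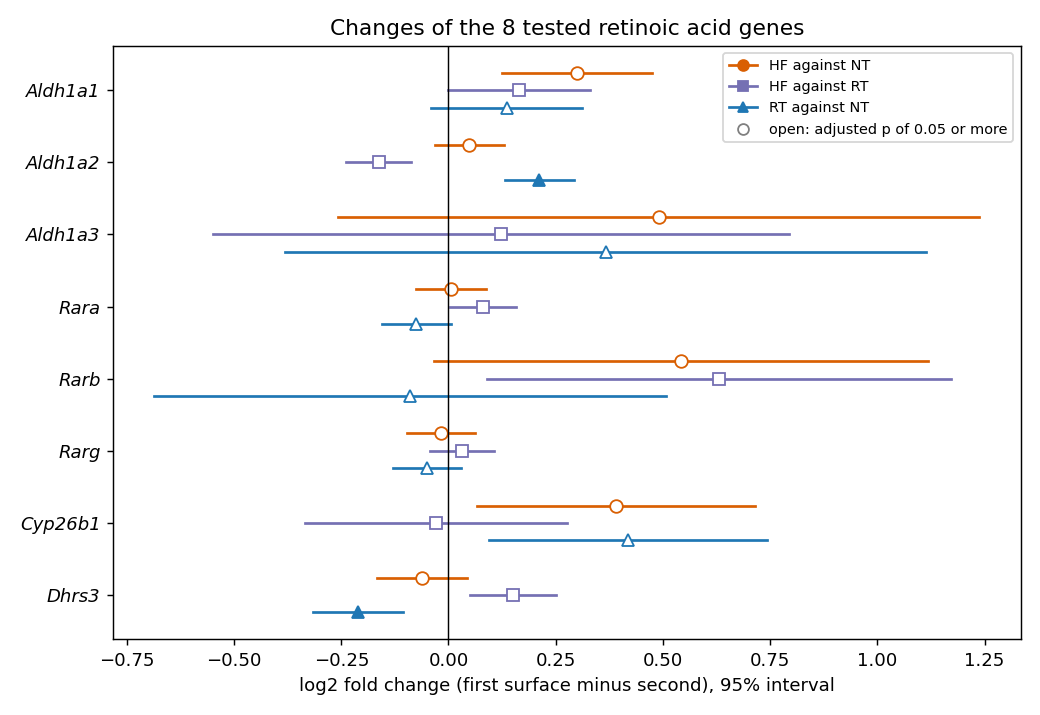
Log2 fold change (horizontal axis, first surface minus second) with its 95% interval for the 8 tested genes in the 3 comparisons; filled symbols have an adjusted p under 0.05 in edgeR. The only filled symbols are Aldh1a2 (0.21) and Dhrs3 (-0.21) for RT against NT, and the wide intervals belong to Aldh1a3 and Rarb.

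Fractal topography against the flat surface is the contrast with the smooth control, and it shares the NT libraries with the comparison above. None of the 8 tested members passed in edgeR, though 2 had an unadjusted p under 0.05 (2165 of 15196 over all genes), and DESeq2 and limma voom each called 1, Aldh1a1. Over all genes 354 passed (2.33%) and 332 did not overlap (2.18%); of the members none did either. The members' median log2 fold change was 0.17 with 6 of 8 positive, against -0.0025 over all genes, of which 7445 of 15196 were positive.

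Aldh1a1 came closest. It measured 84.5, 101, 82.5, 82.2 and 85.7 CPM on NT, where library 2 stood apart. On HF the lowest, median and highest were 97.2, 104 and 126 CPM. Flat library 2 lay inside the HF range and the other 4 lay below it. The difference was 0.30 ± 0.08 (log2; 95% interval 0.12 to 0.48; 23.1% higher), with an adjusted p of 0.0732 in edgeR. It passed under DESeq2 (0.00276), limma voom (0.0186), no filter on low counts (0.0217) and a fit to these groups alone (0.0395), and in edgeR without flat library 2 (0.36, adjusted p 0.0286) or without RT library 5 (0.0420).

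Cyp26b1 ran from 260 CPM through a median of 320 to 350 CPM on HF. Flat library 2 lay inside this range, and the other 4 flat libraries lay below it. The difference from NT was 0.39 ± 0.15 (log2; 95% interval 0.07 to 0.71), with an adjusted p of 0.239 in edgeR. Aldh1a2, with 108 ± 5.27 CPM on HF, differed from NT by 0.05 ± 0.04 (log2; adjusted p 0.638, edgeR), within the spread of the libraries. Dhrs3, with 78.1 ± 4.14 CPM, differed by -0.06 ± 0.05 (adjusted p 0.654, edgeR), and its groups overlapped.

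Rara and Rarg were close to level between HF and NT. Rara stood at 88.8 ± 2.33 CPM on HF, and its interval of -0.08 to 0.09 on the log2 scale was narrow. For Rarg, at 67.2 ± 1.97 CPM, it was -0.10 to 0.06. Rarb averaged 1.44 ± 0.208 CPM on HF (SD, n = 6) against 0.988 ± 0.416 CPM on NT (SD, n = 5), a difference of 0.54 ± 0.28 (log2; adjusted p 0.390, edgeR) that did not pass. Aldh1a3 averaged 0.772 ± 0.384 CPM on HF and 0.544 ± 0.200 CPM on NT, and did not pass either (adjusted p 0.604, edgeR). Of the markers, Havcr1 (19.9 CPM on HF) and Acta2 (364 CPM) rose and Wt1 (103 CPM) and Ncam1 (264 CPM) fell against NT; their part in the members' values was not tested.

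Fractal against round topography compares both textures and shares libraries with each comparison above. No member passed in edgeR, with 4 of 8 at an unadjusted p under 0.05 (1216 of 15196 over all genes), and DESeq2 called 1, Aldh1a2, while limma voom called none. Over all genes 32 passed (0.211%) and 147 did not overlap (0.967%), and none of the 8 members was among either. The median log2 fold change of the members was 0.10 with 6 of 8 positive, against -0.00072 over all genes.

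The 2 genes that changed on the round surface had the smallest p here. Aldh1a2 ran from 102 CPM through a median of 107 to 116 CPM on HF, so that HF library 3 overlapped the lowest RT library at 113.5 CPM and the other HF libraries lay below all of RT. Its difference was -0.16 ± 0.04 (log2; 95% interval -0.24 to -0.09; 10.7% lower), with an adjusted p of 0.0512 in edgeR. That is on the edge of the threshold: it passed under DESeq2 (0.0169), no filter on low counts (0.00711) and a fit to these groups alone (0.00852). It also passed in edgeR without NT library 1 (0.0314), NT library 5 (0.0222), RT library 4 (0.0344) or HF library 3 (0.0102), and reached 0.176 at most without 1 library and 0.297 in the libraries numbered 1 to 5. Dhrs3 ran from 70.7 CPM through a median of 79.3 to 81.9 CPM on HF, overlapping RT, with a difference of 0.15 ± 0.05 (log2; 95% interval 0.05 to 0.25; adjusted p 0.296, edgeR). Of the markers of all lists, Ncam1 of the parietal list passed here, as 1 of 5 tested, at 294 CPM on RT and 264 CPM on HF. That list of 8 summed to 1188 to 1246 CPM on RT and 1140 to 1245 CPM on HF, with Krt18 at 0, and its part in the members' values was not tested.

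For the other members the surfaces were not told apart. Cyp26b1 differed by -0.03 ± 0.14 between HF and RT, with an interval of -0.33 to 0.28 on the log2 scale. Aldh1a1 differed by 0.16 ± 0.08 (adjusted p 0.627, edgeR), Rara by 0.08 ± 0.04 (0.592) and Rarg by 0.03 ± 0.04 (0.910), all on the log2 scale. Rarb differed by 0.63 ± 0.27 (log2; 95% interval 0.09 to 1.17; adjusted p 0.502, edgeR): it had 18 to 29 counts in each HF library and 5 to 30 in each RT library. Its counts carry a further limit, since 38.4% of its exon bases overlap those of Gm48162 or Top2b and the library preparation kept no strand. Aldh1a3 differed by 0.12 ± 0.33 (log2), and Crabp2, the carrier of retinoic acid to its receptors, had 15 counts on NT, 30 on RT and 27 on HF in all and was not tested.

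Other genes of the pathway, 70 in all, were taken from lists by role, and 43 were tested. Against NT, 2 rose on RT (Aldh1a7 and Dhrs9) and 1 on HF (Aldh1a7), none fell, and none passed between HF and RT, where 5 had an unadjusted p under 0.05 (1216 of 15196 over all genes). These counts out of 43 are near the shares of all genes that passed, 3.97% for RT against NT and 2.33% for HF against NT, so they set the pathway apart in neither comparison. Their median log2 fold changes were 0.01 for RT against NT, 0.04 for HF against NT and 0.03 for HF against RT, with 23, 29 and 29 of 43 positive. Both genes that passed were placed in the list of retinol and retinal conversion, of which 12 were tested. Whether Aldh1a7 acts on retinal was not measured here, so its rise is not a measure of retinoic acid synthesis. None of the 4 tested genes of retinol uptake and storage, the 12 retinoid X receptors and cofactors, the 3 genes of binding and clearance and the 13 target genes passed in any comparison; Stra6 stands in both the uptake and the target list.

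**Figure D3:**
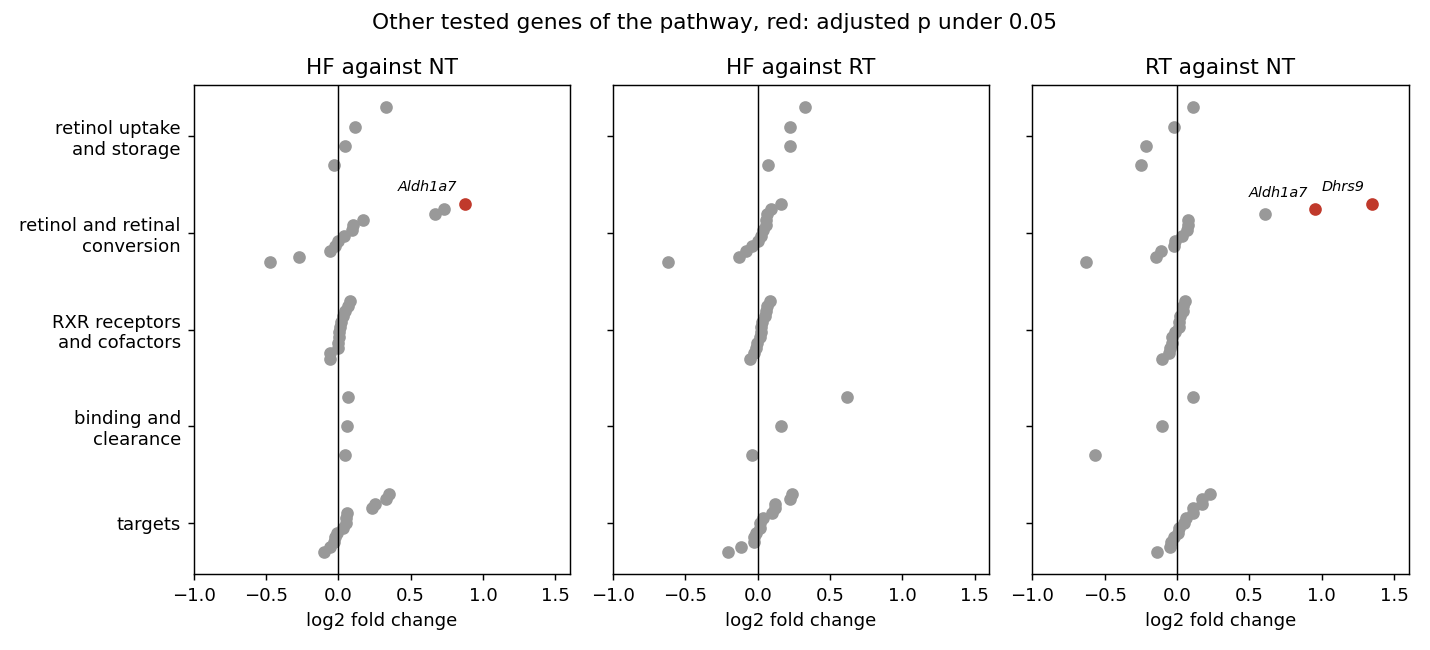
Log2 fold change (horizontal axis) of the 43 other tested pathway genes by role (vertical axis), 1 panel per comparison; red points have an adjusted p under 0.05 in edgeR. Red points are Aldh1a7 for HF against NT (0.87), and Aldh1a7 (0.96) and Dhrs9 (1.35) for RT against NT, while the panel for HF against RT has none.

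Aldh1a7 is a close relative of Aldh1a1 and known in rodents. It measured 1.30, 1.42, 1.02, 1.00 and 1.45 CPM in the flat libraries. RT libraries ran from 2.11 CPM through a median of 2.36 to 2.75 CPM, and HF libraries from 1.49 CPM through 2.42 to 2.74 CPM. Every textured library was above every flat one, at 17 to 66 counts each. The log2 fold change was 0.96 ± 0.20 for RT against NT (adjusted p 0.00347, edgeR) and 0.87 ± 0.20 for HF against NT (adjusted p 0.0144), the latter lost without NT library 3 (0.0534). Of the 100-base windows of Aldh1a1, 0.0443% also occur in Aldh1a7 as exact matches. Windows with mismatches were not counted, and how reads were assigned between these 2 genes was not tested.

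Dhrs9, a retinol dehydrogenase, measured 0.433, 0.0677, 0.268, 0.647 and 0.289 CPM on NT and ran from 0.681 through 0.820 to 1.18 CPM on RT, with no overlap. These are 1 to 26 counts per library. The log2 fold change was 1.35 ± 0.36 (adjusted p 0.0279, edgeR), and the call was lost without NT library 2 (0.0756), NT library 3 (0.0863), RT library 3 (0.0655) or RT library 6 (0.0623), and in the libraries numbered 1 to 5 (0.0534). Rdh12, a retinal reductase named here after its values were seen, stood at 2.96 ± 0.741 CPM on NT, 4.52 ± 0.871 CPM on RT and 4.71 ± 1.46 CPM on HF. Its adjusted p was 0.0770 and 0.0653 against NT, and both passed under DESeq2 (0.0431 and 0.0276) and with no filter on low counts (0.00653 and 0.00234). Without 1 library, the first passed without HF library 3 (0.0358) and the second without HF library 1 (0.0378).

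Abundant genes of the other roles were measured with little spread. Rdh10, the principal retinol dehydrogenase of retinoic acid synthesis, stood at 174 ± 12.0 CPM on NT, 183 ± 8.40 CPM on RT and 186 ± 5.61 CPM on HF, and passed in no comparison. Rai14, a gene named for its induction by retinoic acid, averaged 159 CPM over all libraries, Ppard, a nuclear receptor, 42.4 CPM, and Dgat1, which can esterify retinol, 35.3 CPM. Genes at or near 0 were looked up after the values were seen. Lrat, the main retinol esterifying enzyme, had no count in 17 libraries, which allows up to 0.00996 CPM by counting error. Cyp26a1, a sensitive target of retinoic acid, had 33 counts in all libraries together, Cyp26c1 16 and Crabp1 5. Cyp26b1 was thus the CYP26 gene with substantial mRNA in these cells. Stra6, the retinol transporter, measured 9.80 ± 0.627 CPM on NT and 12.3 ± 1.88 CPM on HF (adjusted p 0.0580, edgeR), also looked up afterwards. It passed under DESeq2 (0.0313), with no filter on low counts (0.0296) and without HF library 1 (0.0349), HF library 2 (0.0459) or HF library 3 (0.0494).

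Across the 17 libraries, Aldh1a1 and Cyp26b1 moved together more than any other of the 28 pairs of tested members. Pearson's r of log2 CPM was 0.792 (permutation p 0.00017, Benjamini-Hochberg adjusted over the 28 pairs 0.00476) and Spearman's rho 0.799 (permutation p 0.00027, adjusted 0.00756). The permutations ignored surface and replicate number. Without the libraries farthest from the Aldh1a1 median, HF 3 and NT 4, r was 0.837. Within RT alone r was 0.876 and within HF alone 0.819 (n = 6 each), so the relation was present inside surfaces as well as across them. Libraries numbered 5 and 6 were low in both genes within their groups: Cyp26b1 deviated from its group mean by -0.24 on the log2 scale in number 5 and -0.26 in number 6, and Aldh1a1 by -0.11 and -0.09. What these numbers stand for is not given in the sources used here, and their part in the relation was not tested.

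**Figure D4:**
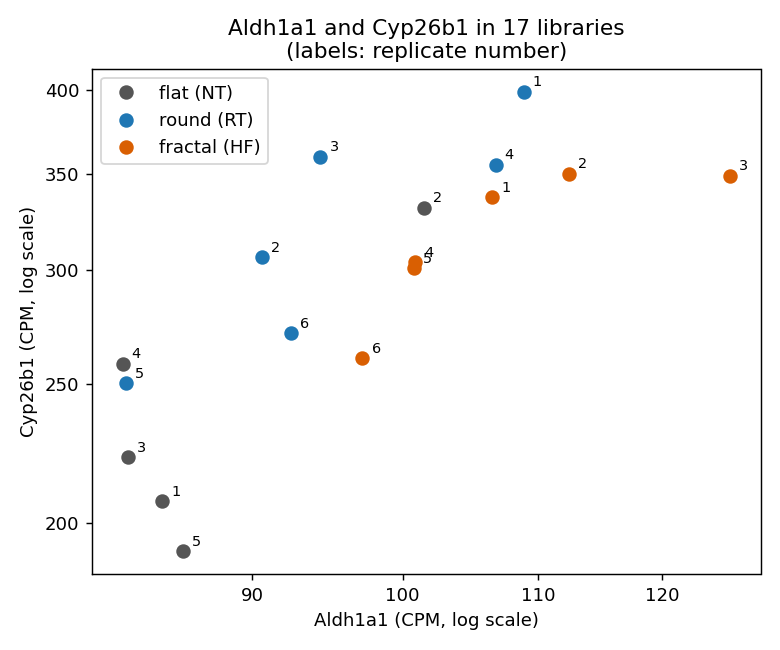
Cyp26b1 against Aldh1a1 in the 17 libraries, both in CPM on log axes, coloured by surface and numbered by replicate. Points rise together (r = 0.792), and flat library 2, at 101 CPM of Aldh1a1 and 331 CPM of Cyp26b1, lies among the textured libraries.

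Aldh1a2 and Rarg ran against each other, with r of -0.713 (permutation p 0.00193, adjusted over the 28 pairs 0.0270) and rho of -0.718 (permutation p 0.00172, adjusted 0.0241). The relation was uneven: without the libraries farthest from the Aldh1a2 median, NT 1 and RT 1, r was -0.591, within NT it was -0.987 (5 libraries), within HF -0.772 and within RT -0.127. No other pair of members passed. Aldh1a2 and Dhrs3, which changed in opposite directions on RT, had r of -0.622 over all libraries (permutation p 0.00768, adjusted 0.0625), and with the group means removed r was -0.11.

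Likeness was measured over the 12271 tested genes whose average log2 CPM reached 1. The 3 most like Aldh1a2 in log2 CPM over 17 libraries were Cbs (r = 0.918), Adgre5 (r = 0.892) and Jag1 (r = 0.890). Cbs, which makes cystathionine from homocysteine, measured 17.9 CPM on NT, 25.4 on RT and 17.7 on HF, highest on RT as Aldh1a2 was. Adgre5, an adhesion receptor, measured 18.9, 22.9 and 20.3 CPM, and Jag1, a Notch ligand, 267, 297 and 261 CPM on NT, RT and HF. Most like Dhrs3 were Inmt (r = 0.815), Atoh8 (r = 0.787) and Ap5s1 (r = 0.780). Inmt, a methyltransferase, measured 374 CPM on NT, 294 on RT and 333 on HF, so that HF lay between the other surfaces as it did for Dhrs3. With the group means removed r was 0.793 for Cbs with Aldh1a2 and 0.630 for Inmt with Dhrs3. These are the highest of many correlations and carry no test.

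**Figure D5:**
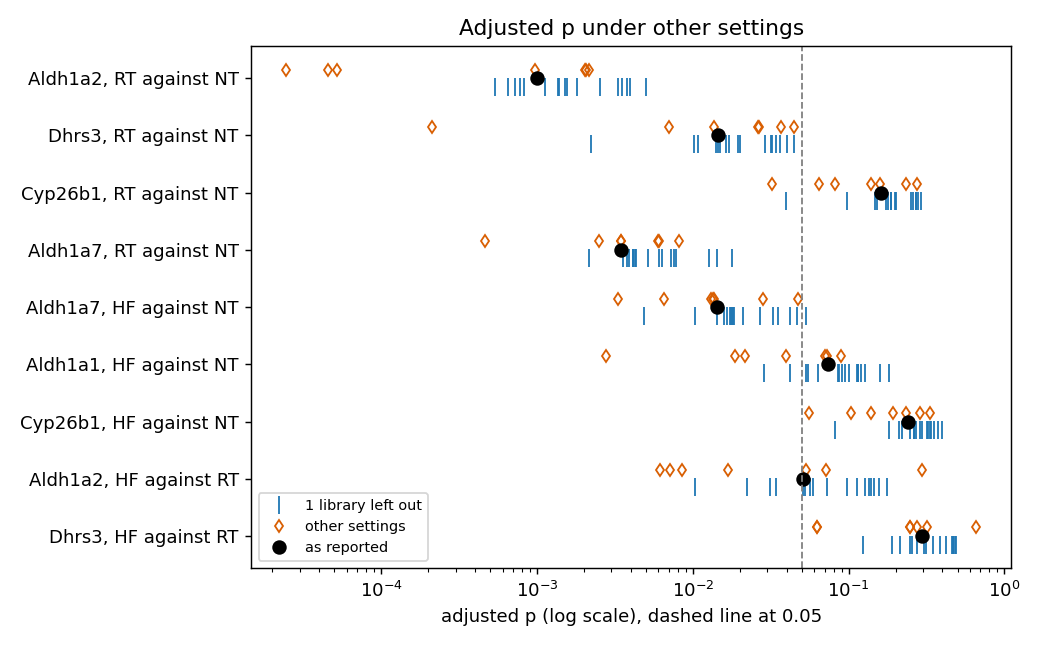
Adjusted p (horizontal log axis, dashed line at 0.05) of 9 changes as reported (black), with 1 library left out (blue ticks) and under other settings (orange diamonds). Aldh1a2 and Dhrs3 for RT against NT stay left of the line throughout, with Dhrs3 at 0.0446 at most, while Aldh1a1 for HF against NT and Aldh1a2 for HF against RT have values on both sides.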

How the data were processed

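Gene expression was measured by RNA-seq in 17 libraries, grouped by the surface in the labels. The authors deposited counts of reads per gene, not normalized. Per the labels' protocols, poly-A RNA was selected, libraries were non-directional and reads were paired. The submitters' processing notes name CASAVA, HISAT2 2.0.5, featureCounts 1.5.0-p3 and GRCm39, with no roles. The annotation release, strand setting and filters are not given in the sources used here. Reads that overlap genes on either strand therefore cannot be told apart.

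Symbols, exon lengths, overlaps and shared windows of 100 bases came from GENCODE M21, on the earlier assembly GRCm38, and start regions from RefSeq on GRCm38.p6. No gene positions in GRCm39 are given. Of the identifiers, 52073 had a symbol, and those without held 0.580% of counts. Genes were kept by filterByExpr (15196), TMM-scaled and analysed in edgeR 4.0.16 (R 4.3.3) by the robust quasi-likelihood F test, with 3 group means in 1 fit. Two-sided p-values were adjusted (Benjamini-Hochberg) across the 15196 genes, and 0.05 was the threshold. The common biological coefficient of variation was 0.0603. Each standard error is the size of the log2 fold change over the square root of F. Likeness, and values with the group means removed, use log2 CPM with a prior count of 2. Correlations of member pairs, also within surfaces and with libraries left out, use the log2 of CPM plus a small constant. Their permutation p-values come from 100000 permutations over all libraries, with no regard to surface or replicate number. They therefore mix differences between surfaces with differences among libraries of 1 surface.

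Members and lists were chosen with earlier results of these data known. Named were all members, pathway genes past the threshold in any comparison, the most abundant gene of each list and the 3 genes most like each changed member. Other names were chosen after their values were seen. Some genes the rule took are not reported here. Alternatives were DESeq2 1.42.0, limma 3.58.1 (voom), RLE size factors, no filter beyond 1 count, a fit to only the groups compared, a replicate block, libraries numbered 1 to 5, and each library left out.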

Additional observations from a re-analysis of the deposited data

Results flagged for a closer look

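Among 27 groups of values (9 members on 3 surfaces), 1 held a library far from the rest, and chance gives about 1 in 20. Aldh1a1 in flat library 2 measured 101 CPM, the next highest flat library 85.7 CPM, and the gap was 0.815 of the group's range. The same library was also the highest flat one for Cyp26b1, at 331 CPM.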

How the results depend on the processing

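The calls of Aldh1a2 and Dhrs3 for RT against NT, and of Aldh1a7 for RT against NT, held under every alternative run. Over left-out libraries the adjusted p ran from 0.000539 to 0.00501 for Aldh1a2 and from 0.00221 to 0.0445 for Dhrs3.

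Counts moved more. For HF against NT, 354 genes passed, and 564 with DESeq2, 597 with no filter and 200 with only these groups. Left-out libraries gave 202 (NT 3), 203 (HF 4) and up to 604 (NT 5). The count of members, 0, became 1 with DESeq2, limma voom, no filter and only these groups, and 0 to 1 over left-out libraries. For HF against RT, 32 genes passed, and 84 with DESeq2, 148 with no filter, 113 with only these groups and 15 in libraries numbered 1 to 5. Left-out libraries gave 14 (RT 1 or RT 3) to 89 (HF 3), with 16 or 18 without RT 2, HF 1, HF 4, HF 5 or HF 6, 56 without NT 1 and 70 without NT 5. The count of members, 0, became 1 with DESeq2, no filter and only these groups, and 0 to 1 over left-out libraries. For RT against NT, 603 genes passed, and 365 (NT 3) to 806 (NT 5) over left-out libraries. The count of members ran from 2 to 3, Cyp26b1 being added without NT 2 and with limma voom. Causes were not tested, apart from fewer libraries or other genes tested.

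Same-numbered libraries were not treated as paired, since the sources used here do not say what the numbers stand for. Deviations correlated above 0.1 in 2 of 16 same-numbered pairs (range -0.011 to 0.193, median 0.046). In 80 other pairs they ran from -0.134 to 0.061, with a median of -0.017, so same-numbered libraries were somewhat more alike. Of 17 libraries, 8 correlated best with their own number, a hint from the data and not the design. With the replicate block, HF against NT had 637 genes past the threshold, RT against NT 995 and HF against RT 125. The block left 0 members for HF against NT and 2 for RT against NT, and gave 1 for HF against RT, Aldh1a2 (adjusted p 0.00618). Under the block Rdh12 also passed against NT, for RT (0.0393) and HF (0.0350).

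Uncalled log2 changes near 0 turned sign. Rara for HF against NT was -0.0065 with the replicate block and -0.0040 in libraries 1 to 5 (left-out range -0.0087 to 0.028). Aldh1a7 for HF against RT was 0.064 in libraries 1 to 5 (range -0.14 to 0.015). The left-out range was -0.093 to 0.040 for Cyp26b1, -0.14 to 0.35 for Aldh1a3 and -0.094 to 0.14 for Rdh12, all HF against RT, and -0.24 to 0.20 for Rarb, RT against NT. Few counts limit Aldh1a3, Rarb, Crabp2 and Dhrs9.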
